A study of Mus musculus with 10 samples.

Results

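Corticotroph cells of the anterior pituitary release ACTH, a product of the *Pomc* precursor, and their output is set by receptors for hypothalamic hormones. The 10 genes described here are the receptors for corticotrophin-releasing hormone (*Crhr1*, *Crhr2*), vasopressin (*Avpr1b*, *Avpr1a*), somatostatin (*Sstr1* to *Sstr5*) and dopamine (*Drd2*). They were chosen by name, whether or not they were expressed, from a table of 53801 genes. A count was found in at least 1 library for 5 of them, and 4 passed the filter on low counts, which left 14336 genes to be tested.

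RNA was sequenced from AtT20/D16v-F2 cells, a mouse pituitary tumour line of corticotroph origin. Both lines compared had been stably transduced with a lentivirus, which carried an shRNA (short hairpin RNA) against *Creb3l1*, a transcription factor of the CREB3 family, or the non-targeting control hairpin. There were 5 libraries for each line, each line carried a single hairpin, and the study describes its replicates in general as biological. Whether the libraries of a line came from separate cultures is not given in the sources used here, so p-values measure the spread between these libraries. No hormone treatment is named in the labels, and the medium held serum. The comparison was made to find genes that depend on *Creb3l1* in a secretory cell. With a single hairpin per line, loss of *Creb3l1*, other effects of a hairpin and other differences between the lines cannot be told apart.

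As background, the CRH receptor CRHR1 couples to Gs, adenylyl cyclase and cAMP, and is the main drive to *Pomc* transcription and ACTH release. The vasopressin receptor of corticotrophs, V1b (*Avpr1b*), couples to Gq and phospholipase C and acts together with CRH. Somatostatin receptors and the dopamine D2 receptor couple to Gi/o proteins, which lower cAMP and open inwardly rectifying potassium channels, and so restrain secretion. SSTR2 and SSTR5 are the somatostatin receptors targeted by drugs in pituitary tumours.

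The libraries held from 17420698 to 22205107 reads counted on genes. *Creb3l1* fell from 3689 ± 148 to 1090.0 ± 59.2 normalised counts (SD, n = 5), a log2 fold change of -1.76 (SE 0.038, adjusted p = 3.4e-18, edgeR's quasi-likelihood test). *Pomc*, the defining corticotroph gene, was between 126258 and 137531 normalised counts in the non-targeting line and between 87908 and 95083 in the *Creb3l1* shRNA line. The hormone genes of other pituitary cells were at or near 0, with at most 7 reads in all libraries together for each of *Gh*, *Prl*, *Tshb*, *Lhb* and *Fshb*, and 34 for *Cga*, the subunit shared by the glycoprotein hormones. Non-targeting shRNA replicate 3 stood apart from its line, with 4.13% of its counts on the non-coding gene *Gm42418*, against 0.107% to 0.129% in the other libraries of the line. Values without it are given beside each receptor. *Creb3l1* shRNA replicate 2 also differed more from its line, with a chi-square per degree of freedom of 5.47 to 9.23 in its pairs against 2.28 to 3.36 in the other pairs. Without it the log2 fold changes were 0.43 for *Sstr2*, 0.21 for *Sstr3*, -0.22 for *Sstr5* and -0.13 for *Crhr1*, with the same receptors called, and 5815 genes were called in all against 5628.

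The hairpins and the upstream sequence of *Sstr2* are shown first, because the results turn on the knockdown and on this receptor. The hairpin targets are written 5′ to 3′ as the DNA of the sense strand, with the 7 bases that pair with the guide seed in capitals.
Creb3l1 shRNA target: gagtcggatttccTCAACAAt
Non-targeting shRNA target: atcatgttaggcgTACGGACt
The seed word TCAACAA was present in the longest annotated transcript of 23.1% of the tested genes. It was absent from those of *Crhr1*, *Sstr2*, *Sstr3* and *Sstr5*, as was TACGGAC, which was present in 4.0% of the tested genes. The longest run of bases that any of the 4 transcripts shared with either strand of a target was 8. The seed words of the opposite strand of each hairpin, present in 7.15% and 24.3% of the tested genes, were also absent from these 4. Other transcripts of these genes were not searched, and effects of a hairpin on them were not tested.

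RefSeq promoter windows of 300 bases, from 250 before to 50 after a start, were found for 7 of the 10 genes on GRCm38.p6, as 8 windows. The 3 words searched on both strands were GACGTG, the core of the G-box bound by Creb3l1, CACGTG, its palindromic form, and TGACGTCA, the full cAMP response element (CRE). GACGTG and TGACGTCA share the run GACGT but not their last bases. Over all 32851 windows the share that held each word was 6.38%, 7.15% and 1.79%. The *Sstr2* window held TGACGTCA, which began 58 bases before the start, and neither of the other words. The 250 bases before the *Sstr2* start, chr11:113619077-113619326 on the plus strand, hold it in capitals.
Sstr2 upstream: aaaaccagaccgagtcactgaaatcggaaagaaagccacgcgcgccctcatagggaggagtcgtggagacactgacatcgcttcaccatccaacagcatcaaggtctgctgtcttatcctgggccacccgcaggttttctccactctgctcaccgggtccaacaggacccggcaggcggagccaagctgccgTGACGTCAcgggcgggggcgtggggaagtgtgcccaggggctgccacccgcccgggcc
A window of *Sstr3* held GACGTG, 45 bases after its start, and CACGTG, 31 bases before it. Both words lay inside an annotated exon of *Sstr3* on chromosome 15, in these stretches of the minus strand, chr15:78544296-78544325 and chr15:78544359-78544388.
Sstr3 with GACGTG: ggccgaggaccagatgggagaggcGACGTG
Sstr3 with CACGTG: tccggcaccctcCACGTGtcctggagatgg
None of the 3 words was in the windows of *Crhr1*, *Crhr2*, *Avpr1a*, *Sstr4* or *Drd2*, or in the other window of *Sstr3*. Windows of *Avpr1b*, *Sstr1* and *Sstr5* were not analysed here. These matches describe the sequence and are no measure of binding.

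Among the receptors of the stimulatory hormones, *Crhr1* was the only one with more than 1 read, and its level was low. *Crhr1* (ENSMUSG00000018634, chr11:104132855-104175523, plus strand) had 28, 20, 26, 29 and 40 reads in non-targeting shRNA replicates 1 to 5. In the *Creb3l1* shRNA libraries it had 26, 27, 20, 18 and 48 reads. The libraries of the lines overlapped, and the highest count stood in replicate 5 of each line. The means were 29.2 ± 6.09 and 26.9 ± 10.3 normalised counts (SD, n = 5), which are counts scaled to the mean effective library size. The log2 fold change was -0.11 (95% confidence interval -0.60 to 0.38, adjusted p = 0.73), so a change within that interval is not excluded. The value was -0.09 without non-targeting replicate 3. Over the fits that left out a library it ran from -0.36 without *Creb3l1* shRNA replicate 5, and -0.20 without non-targeting replicate 2, to 0.01 without non-targeting replicate 5 and 0.02 without *Creb3l1* shRNA replicate 4.

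*Crhr2* (chr6:55090049-55133016), the receptor preferred by the urocortins, had 0 reads in all 10 libraries. *Avpr1b* (chr1:131599239-131612000) also had 0 reads in all 10. *Avpr1a* (chr10:122448499-122453452), the vasopressin receptor of liver and smooth muscle, had 1 read, in *Creb3l1* shRNA replicate 4. A count of 0 in a single library allows up to 3 reads. That is between 0.135 and 0.172 CPM (reads scaled by the library total) over the libraries, and covers counting error only. *Crhr1*, for comparison, was between 0.84 and 2.15 CPM, here scaled by the effective library size rather than the total. No change can be given for these 3 genes.

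**Figure D1:**
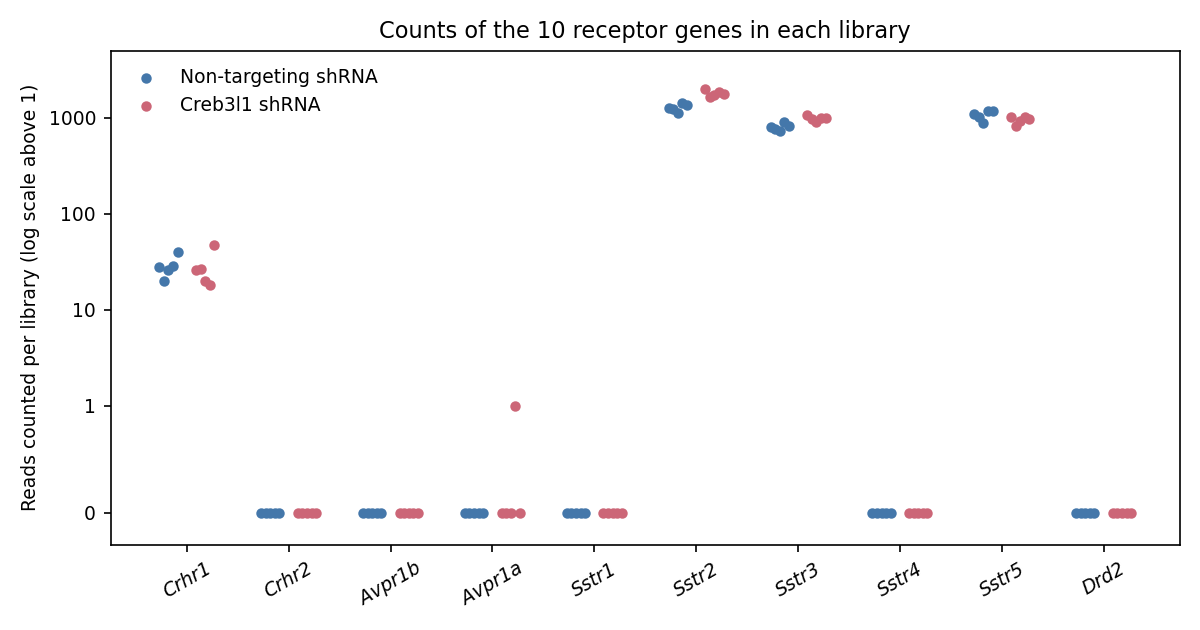
Reads counted on each receptor gene (y axis, log scale above 1) in the 5 non-targeting (blue) and 5 *Creb3l1* shRNA (red) libraries. *Sstr2*, *Sstr3* and *Sstr5* have from 726 to 2022 reads, *Crhr1* has from 18 to 48, *Avpr1a* has 1 read in 1 library, and the other 5 genes are at 0.

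Of the Gi/o-coupled receptors, *Sstr2*, *Sstr3* and *Sstr5* were expressed in both lines. *Sstr2* and *Sstr3* rose and *Sstr5* fell in the *Creb3l1* shRNA line. These are 3 called genes of 4 tested and of 10 in all, where 39.3% of all tested genes were called at an adjusted p under 0.01, 19.9% of them as higher and 19.4% as lower. With so few members, their count is not read as a result about receptors. For the same 3 genes the libraries of the lines did not overlap, which was so for 36% of all tested genes.

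*Sstr2* (ENSMUSG00000047904, chr11:113619342-113626028, plus strand) showed the largest change of the 4. Its normalised counts in the non-targeting libraries were 1273, 1309.8, 1384, 1348 and 1277. In the *Creb3l1* shRNA libraries they were 1858, 1783, 1846, 1742 and 1623. Every knockdown library was above every control library, and the gap between the lines was wider than the range of either line. The means were 1318 ± 47.5 and 1770.4 ± 94.8 (SD, n = 5), a rise of 34.3%. The log2 fold change was 0.43 (SE 0.038, adjusted p = 8.9e-09), and 0.44 without non-targeting replicate 3. Of the 5628 genes called, 30.2% changed by more. *Sstr2* lies within the span of *Slc39a11*, a zinc transporter gene on the opposite strand, but no exon base is shared. *Slc39a11* was at 2540.4 ± 114 and 2554 ± 83.2 normalised counts, a log2 fold change of 0.01 (adjusted p = 0.87).

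*Sstr3* (ENSMUSG00000044933, chr15:78537008-78544685, minus strand), a receptor also known from neuronal cilia, rose by less. Its normalised counts were 814, 802, 888, 858 and 779.8 in the non-targeting libraries. In the *Creb3l1* shRNA libraries they were 981, 1033, 969, 954 and 909. The lines did not overlap, but the lowest knockdown library, at 909, was close to non-targeting replicate 3, at 888. The rise was 17.1%, with a log2 fold change of 0.23 (SE 0.042, adjusted p = 0.000125), and 0.25 without that control library.

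*Sstr5* (ENSMUSG00000050824, chr17:25489875-25497288, minus strand) was the only receptor of the 10 called lower. Its normalised counts were 1100.4, 1084, 1076, 1102 and 1121 in the non-targeting libraries. In the *Creb3l1* shRNA libraries they were 939, 886, 978, 961 and 879. Every knockdown library lay below every control library, and the control libraries spread less, with an SD of 17.6 against 44.2. The log2 fold change was -0.24 (SE 0.036, adjusted p = 9.8e-06), a level that fell by 15.4%, and it was -0.25 without non-targeting replicate 3. When GC content and transcript length were entered as offsets it was -0.17 for *Sstr5*, 0.50 for *Sstr2* and 0.25 for *Sstr3*, and all 3 stayed called.

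*Sstr1* (chr12:58211772-58214444), *Sstr4* (chr2:148395344-148396767) and *Drd2* (chr9:49340627-49408177) had 0 reads in all 10 libraries. *Drd2* encodes the receptor through which dopamine restrains melanotrophs and lactotrophs. The limit for each is the same as for the vasopressin receptors.

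**Figure D2:**
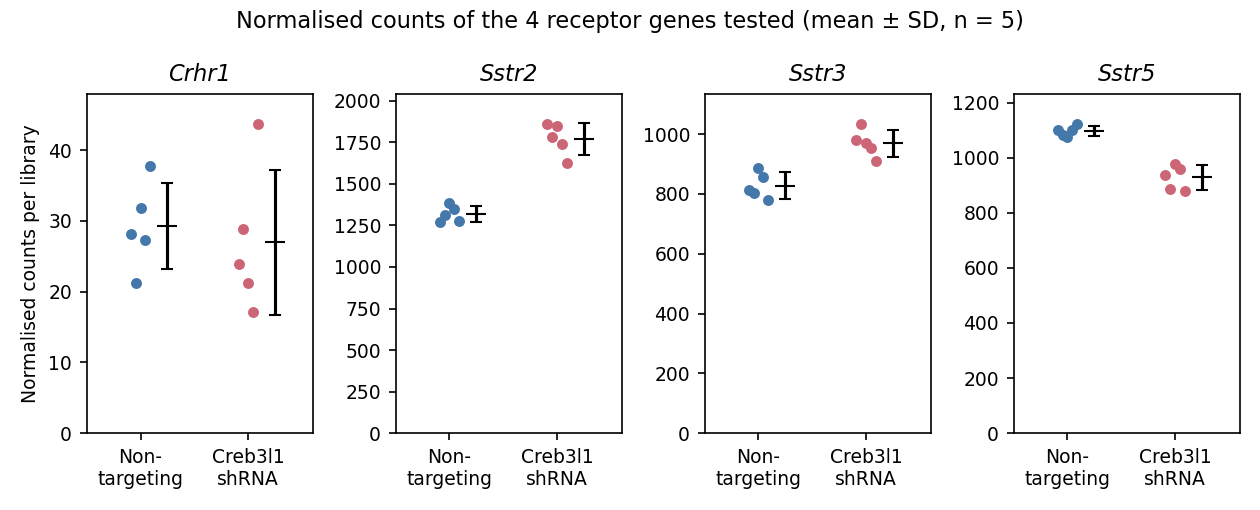
Normalised counts (y axes, from 0) of the 4 tested receptor genes, with a point for each library and the mean ± SD beside the points (n = 5). The lines overlap for *Crhr1*, whereas *Sstr2* and *Sstr3* lie higher and *Sstr5* lower in all 5 *Creb3l1* shRNA libraries.

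Levels were compared between genes as normalised counts per kilobase of exon. In the non-targeting line the order was *Sstr2* (615 ± 22.2), *Sstr5* (401 ± 6.43), *Sstr3* (192 ± 10.1) and *Crhr1* (11.9 ± 2.47, SD, n = 5). The order was the same in the *Creb3l1* shRNA line, at 826 ± 44.2, 340 ± 16.2, 224 ± 10.4 and 11.0 ± 4.17. No library of a gene in this order overlapped the libraries of its neighbour in either line. *Sstr2* stood above 87.0% of the tested genes in the control line and above 91.1% in the knockdown line. *Sstr5* moved from above 79.0% to above 75.1%, and *Crhr1* stood above 10.6% and 10.1%.

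The opposite changes altered the make-up of the somatostatin receptor mRNA. *Sstr2* made up 50.1% to 51.9% of the summed *Sstr2*, *Sstr3* and *Sstr5* level per kilobase in the control libraries and 58.7% to 60.3% in the knockdown libraries. *Sstr5* went from between 31.6% and 34.6% to between 23.2% and 25.4%. The share of *Sstr3* was 15.9% ± 0.50 and 16.1% ± 0.62 (SD, n = 5), with libraries that overlapped. The level of *Sstr2* was 1.53 ± 0.074 times that of *Sstr5* in the control line and 2.43 ± 0.11 times in the knockdown line. The summed level was 15.1% higher in the knockdown line, at 1390.2 ± 61.8 against 1208 ± 27.8 normalised counts per kilobase. Shares are descriptive and were not tested.

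**Figure D3:**
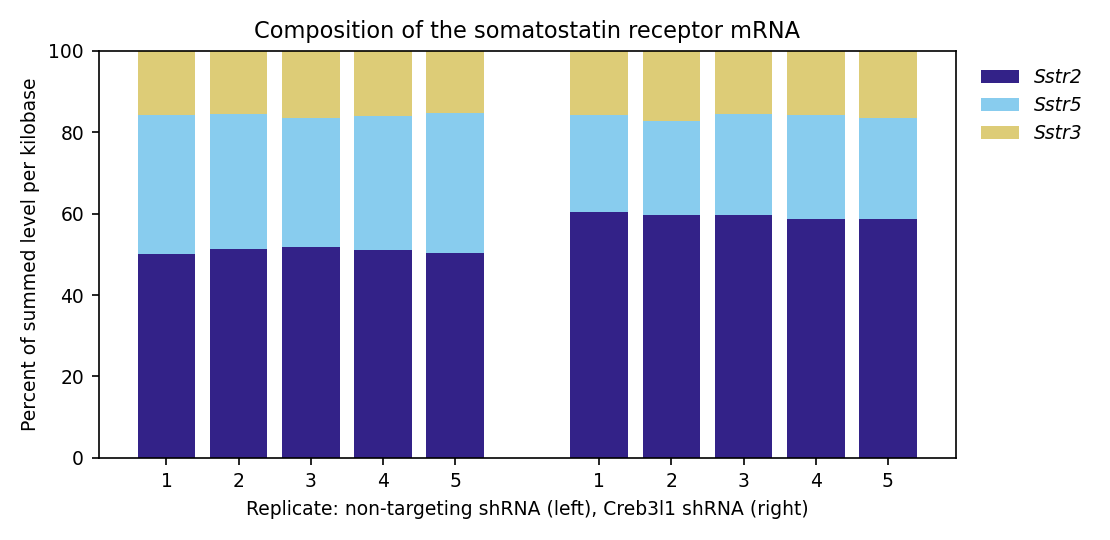
Share of *Sstr2* (dark blue), *Sstr5* (light blue) and *Sstr3* (yellow) in their summed level per kilobase (y axis, percent) for each library (x axis, replicates of the non-targeting line on the left and of the *Creb3l1* shRNA line on the right). *Sstr2* takes at most 51.9% in the control libraries and at least 58.7% in the knockdown libraries.

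The genes whose pattern over the 10 libraries was closest to each receptor were found by the root mean square difference of log2 normalised counts, each centred on its own mean. Among 11000 genes these were *Cyb561*, *Peg13* and *Ywhae* for *Sstr2*, with differences of 0.0469 to 0.048, where the median over all genes was 0.234. For *Sstr3* they were *Il17ra*, *Mmp24* and *Faap20* (0.0279 to 0.0386), and for *Sstr5* they were *Idh3a*, *Eral1* and *Fanci* (0.0272 to 0.0338).

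The signalling genes downstream were taken as 4 lists of 56 genes, of which 47 were tested. In the *Creb3l1* shRNA line 20 rose and 6 fell, which is 55.3% of those tested against 39.3% of all genes. The lists were chosen with earlier results of these data known, and the difference between these shares was not tested. In the Gs and cAMP list, 6 of 13 tested genes rose and 2 fell, with a median log2 fold change of 0.12, where the median of all genes was 0.00. The adenylyl cyclase gene *Adcy5* rose from 107.9 ± 4.30 to 229 ± 23.5 normalised counts, a log2 fold change of 1.08 (adjusted p = 1.9e-09). *Adcy1*, another cyclase gene, rose by 0.50 on the log2 scale, as did *Prkacb*, a catalytic subunit of protein kinase A. Of the regulatory subunits of the kinase, *Prkar1a* rose from 17609 ± 187 to 23645 ± 197 normalised counts, by 0.43 on the log2 scale (adjusted p = 8.7e-14), and *Prkar2b* fell by 0.43, from 1124 ± 42.3 to 831 ± 22.2. *Gnas*, the alpha subunit of Gs, rose by 0.31, and the cyclase gene *Adcy9* fell by 0.16 with libraries that overlapped.

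In the Gq and phospholipase C list 5 of 10 tested genes rose and 0 fell, with a median of 0.15, where 19.9% of all tested genes were called higher and 19.4% lower. *Gnaq*, the alpha subunit of Gq, rose from 3427 ± 204 to 4755 ± 204 normalised counts, by 0.47 on the log2 scale (adjusted p = 2.5e-09). The inositol trisphosphate receptor gene *Itpr2* rose by 0.44 and the phospholipase gene *Plcb4* by 0.22. In the Gi/o list 3 of 9 rose and 3 fell, against the same shares, with a median of -0.01. The potassium channel subunit gene *Kcnj3* rose from 681 ± 52.3 to 967 ± 39.7 normalised counts, by 0.51 on the log2 scale (adjusted p = 1.6e-08). Its partners *Kcnj6* and *Kcnj9* fell by 0.24 and 0.25, and the libraries of the lines overlapped for *Kcnj9*. The G protein alpha subunit genes *Gnai3* and *Gnao1* rose by 0.27 and 0.22, and *Gnaz* fell by 0.17.

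Among genes of receptor desensitisation and RGS proteins, which speed the shut-off of G proteins, 6 of 15 tested genes rose and 1 fell, with a median of 0.14, where 39.3% of all tested genes were called. *Rgs10* fell from 376 ± 19.5 to 145 ± 10.7 normalised counts, a log2 fold change of -1.38 (adjusted p = 2.6e-12), and its libraries did not overlap. The receptor kinase gene *Grk3* rose by 0.42, *Rgs9* by 0.33 and *Rgs7* by 0.22. *Rgs16* and *Rgs20* were also called higher at low levels, from means of 10.3 and 10.8 normalised counts to 23.4 and 20.7. The libraries of the lines overlapped for *Rgs20*.

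Of 11 genes for ligands, their binding proteins and the enzymes of dopamine synthesis, 3 were tested and 2 rose, where 19.9% of all tested genes were called higher. *Crh*, *Ucn*, *Crhbp*, *Avp* and *Sst* had 0 reads in all 10 libraries. *Cort*, which encodes the somatostatin receptor ligand cortistatin, had from 9 to 34 reads in the control libraries and from 16 to 31 in the knockdown libraries, a log2 fold change of 0.35 (SE 0.28, adjusted p = 0.31). *Th*, the rate-limiting enzyme of dopamine synthesis, had 1, 0, 1, 1 and 4 reads in the control libraries. In the knockdown libraries it had 20, 17, 16, 21 and 19 reads, and the lines did not overlap (adjusted p = 4.8e-07). *Ddc*, the enzyme that follows it, rose from 8499 ± 198 to 9431 ± 175 normalised counts, by 0.15 on the log2 scale. Of 6 other receptors of the same families, none passed the filter, and *Drd3* had the most reads, 26 in all.

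Of 10 receptors for other inputs to corticotrophs, 6 were tested, 2 rose and 2 fell, with a median log2 fold change of 0.09, where 39.3% of all tested genes were called. *Il6ra*, the interleukin-6 receptor, rose from 272 ± 21.6 to 857 ± 25.8 normalised counts, a log2 fold change of 1.66 (adjusted p = 6.9e-16). *Il6st*, the signalling subunit that it shares with the LIF receptor, fell from 2753 ± 83.5 to 2153 ± 128, by 0.36 on the log2 scale. *Vipr1*, a receptor for vasoactive intestinal peptide, rose by 0.91, and the glucocorticoid receptor gene *Nr3c1* fell by 0.15.

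**Figure D4:**
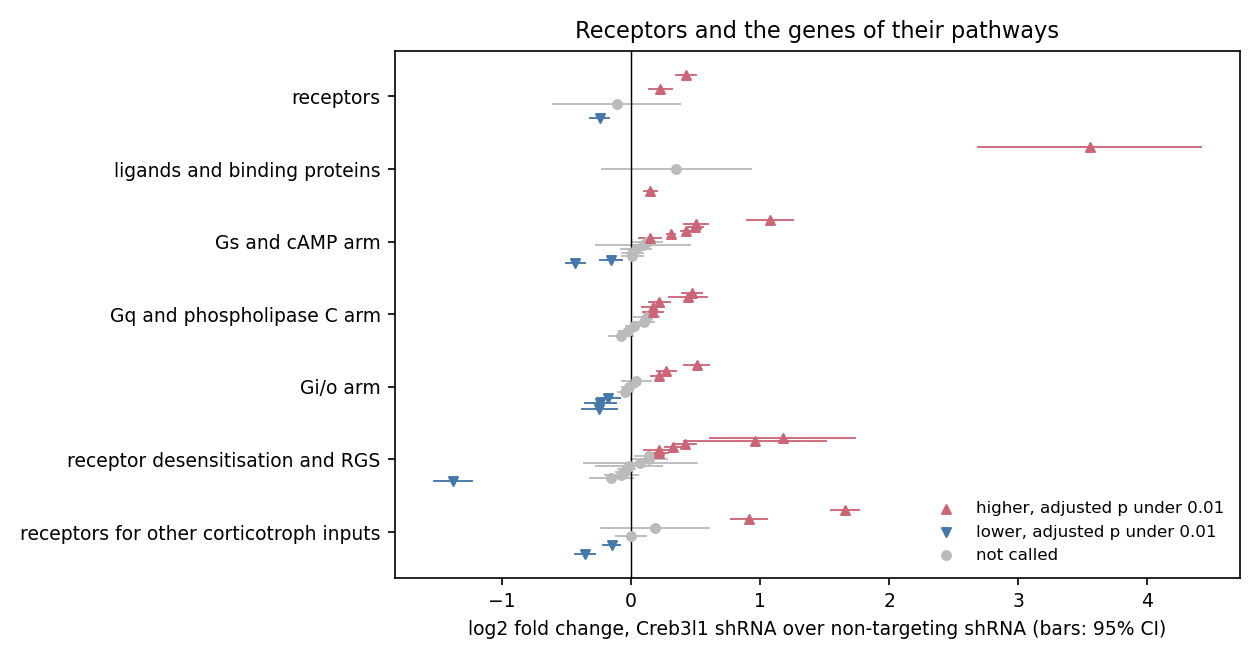
Log2 fold change with its 95% confidence interval (x axis) for each tested gene of the receptors and of 6 pathway lists (rows). Upward red triangles are genes called higher, downward blue triangles genes called lower and grey points genes not called; the Gq list has 5 called higher and 0 called lower, whereas the Gi/o list has 3 of each.

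Markers of the cells changed in both directions between the lines, where 39.3% of all tested genes were called. Of 5 corticotroph markers, *Neurod1* and *Pitx1* rose, by 0.62 and 0.36 on the log2 scale, while *Pomc*, *Pcsk1* and *Tbx19* fell, by 0.51, 0.46 and 0.27. All 5 were called, but the libraries of the lines overlapped for *Pitx1*. By quantitative PCR the study reported a fall of *Pcsk1* mRNA in its *Creb3l1* knockdown lines but no change of *Pomc* mRNA. Of 2 melanotroph markers *Pcsk2* was called higher, by 0.25. *Pax7* went the other way, from a mean of 14.5 to 5.90 normalised counts, but did not pass the filter and was not tested. Of 9 markers of other anterior pituitary endocrine cells only *Nr5a1* was tested and it was not called. Their summed level ranged from 76.4 to 96.6 normalised counts in the control line and from 57.8 to 75.4 in the knockdown line. Most of this sum was *Nr5a1*, at 69.8 to 94.1 and 51.2 to 70.2. Of 5 markers of other cells 3 were tested. *Col1a1* rose by 0.38 with libraries that overlapped, *Pecam1* was called lower, and *Sox2* was not called (log2 fold change 0.33). *S100b* had 3 reads in all libraries together and *Ptprc* had 0. The summed level was 812 to 982 normalised counts in the control line and 967 to 1316 in the knockdown line. Most of that was *Col1a1*, at 645 to 830 and 786 to 1155. The part of these markers in the receptor values was not tested. In bulk RNA, fewer cells that express a gene and less RNA of it per cell cannot be told apart.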

How the data were processed

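The RNA of AtT20 cells was sequenced as 10 libraries, 5 for each shRNA. The authors selected poly(A) RNA with a stranded kit, trimmed reads, used STAR for alignment to GRCm38 and obtained counts per Ensembl gene from featureCounts; the deposited values are whole-number counts without normalisation, and the strand setting of the counting is not given in the sources used here. Depth was 17420698 to 22205107 counts per library, and low counts carry the most error.

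Counts were analysed with edgeR 4.0.16 in R 4.3.3: filterByExpr, TMM factors, the quasi-likelihood test at its default settings without covariates, and Benjamini-Hochberg adjustment with a threshold of 0.01. DESeq2 1.42.0 was an alternative. SE is the log2 fold change over the square root of F. Lengths came from a GENCODE annotation of GRCm38 and promoters from RefSeq (GRCm38.p6). Tables and figures were made in Python 3.11.15 with matplotlib 3.10.9, and the analysis was tested on simulated data.

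The default settings gave 5628 called genes, which differed from the 5837 of an earlier edgeR analysis of the same deposited counts, made for this work and not by the authors. After the data were seen, 20 combinations of edgeR's settings (recomputed library sizes, robust estimation, quasi-dispersion method, dispersion estimate) were therefore compared. They called 5628 to 5837 genes and the same number of receptors, 3, in each. Robust estimation with the older quasi-dispersion method gave 5837, but the default was kept because the design named no other setting and the choice should not follow a known result. Robust estimation and the newer quasi-dispersion method are given as added alternatives.

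The receptors and the gene lists were chosen with earlier results of these data known. Named genes were the 10 receptors, *Creb3l1* and *Pomc*, up to 3 called increases and 3 decreases per list (mean of at least 50 normalised counts) and the 3 nearest patterns (mean of at least 100 normalised counts). *Slc39a11*, *Prkar1a*, *Gnas*, *Th*, *Cort*, *Rgs16*, *Rgs20* and genes named for few or no reads were added after their values were seen. Same-numbered libraries of the lines showed no shared pattern over the tested genes, with correlations of -0.062 to 0.038. These values cannot show whether such libraries were handled together.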

Additional observations from a re-analysis of the deposited data

Results flagged for a closer look

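*Kcnj3* in *Creb3l1* shRNA replicate 2 was at 897 normalised counts, below the other 4 libraries of its line, which were between 975 and 994. It was the only library that stood far from its group among 70 groups of 5 examined (35 genes in each line), where chance alone flags about 1 in 20 groups, or 3.5. None of the 8 groups of the tested receptors held such a library.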

How the results depend on the processing

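*Sstr2*, *Sstr3* and *Sstr5* kept their direction and stayed called in all 19 alternatives to each fold change. The log2 fold change was 0.41 to 0.50 for *Sstr2*, 0.21 to 0.25 for *Sstr3* and -0.26 to -0.17 for *Sstr5*. *Crhr1* was not called in any of its alternatives (adjusted p from 0.19 to 0.98), and with a library left out its value lay between -0.36 and 0.02, with its sign turned at 0.0084 without non-targeting replicate 5 and 0.0202 without *Creb3l1* shRNA replicate 4; at 18 to 48 reads per library its direction was not determined. The number of all genes called was between 5144 and 7130, the highest at an adjusted p under 0.05, with 5542 by DESeq2, 5837 with robust estimation and 5654 with the newer quasi-dispersion method, these last 2 chosen after the data were seen. With the replicate number as a block 5680 genes were called, and the log2 fold changes were 0.42, 0.23 and -0.24 for the 3 receptors; the block changed no receptor call. The order of levels was the same by longest transcript, by library totals and without each library. The 6 receptors at 0 or 1 read are limited by depth. In a single library a level under about 0.135 to 0.172 CPM can give 0 reads. For a gene at 0 in all 10 libraries the limit over the libraries together is lower, and it was not computed.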

Other observations

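Further genes with few reads did not pass the filter and were not tested. They were chosen after their values were seen. *Adcyap1r1*, the PACAP receptor, had 0, 0, 0, 1 and 0 reads in the non-targeting libraries and 1, 1, 1, 5 and 6 in the *Creb3l1* shRNA libraries. *Ucn3*, which encodes a ligand of CRHR2, had 0 reads in the non-targeting libraries and 4, 1, 3, 0 and 0 in the *Creb3l1* shRNA libraries. *Pax7*, a melanotroph factor, had 9, 18, 8, 21 and 16 reads against 6, 6, 7, 3 and 8.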
